A study of Mus musculus with 6 samples.

Results

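The miR-183 cluster is a group of 3 microRNA hairpins, Mir183, Mir96 and Mir182, and its members here are their 5p arms, mmu-miR-183-5p, mmu-miR-96-5p and mmu-miR-182-5p, given below without the species prefix. They were found by name on the array, 3 of 1881 mouse miRNAs, each with 2 probes. The array carried 4415 probes in all. The samples were exosomal RNA from RAW 264.7 cells, an established mouse macrophage line. Exosomes are small membrane vesicles shed by cells, with miRNAs among their cargo. In 3 LPS samples the cells had been given lipopolysaccharide (LPS), a component of the bacterial outer membrane sensed by TLR4, at 2 µg/mL, with collection of the medium at 72 h. The 3 control samples came from normal cells of the same line, with no collection time given for them, so that time in culture and LPS cannot be told apart. Exosomes were isolated from the supernatant on size-exclusion columns, and each sample was measured on 1 one-colour Agilent array. The labels do not say whether replicates are separate cultures; if they are not, each p-value reflects technical spread alone. Precision is limited by there being 3 arrays a group. More vesicles and more of a miRNA per vesicle cannot be told apart in such samples.

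The 3 hairpins are transcribed together as one precursor and are then cut separately into mature miRNAs. A mature miRNA guides an Argonaute protein to mRNAs that pair with its seed, and represses them. The cluster is best known from the sensory cells of the eye, ear and nose, where it is abundant and needed for normal function; it also occurs in epithelial tissues and many tumours, and its members repress Foxo1 and Foxo3, transcription factors of stress and survival.

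The mature sequences, from RefSeq on build GRCm38.p6, are shown because the members differ in only a few seed bases. All 3 members matched the RefSeq table. Capitals mark the seed, bases 2 to 8 from the 5′ end.
miR-183-5p: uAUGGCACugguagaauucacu
miR-96-5p: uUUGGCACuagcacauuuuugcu
miR-182-5p: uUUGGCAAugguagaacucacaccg
The seeds of miR-183-5p and miR-96-5p were equal at 6 of 7 positions and differed by A2U, the base of the first-named miRNA standing first and positions counted from the 5′ end. Those of miR-96-5p and miR-182-5p were also equal at 6 of 7 positions and differed by C8A. miR-183-5p and miR-182-5p were equal at 5 of 7 seed positions (A2U and C8A), but over their first 22 bases they were the most alike pair, with 18 equal bases against 13 for miR-183-5p with miR-96-5p and 12 for miR-96-5p with miR-182-5p. No 2 members shared a whole seed. The only other RefSeq mature miRNA with the seed of a member was miR-1271-5p, which has that of miR-96-5p. No miRNA of that name was on the array.

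On GRCm38.p6, all 3 lie on the minus strand of chromosome 6: miR-183-5p at chr6:30169711-30169732, miR-96-5p at chr6:30169506-30169528 and miR-182-5p at chr6:30165962-30165986. Mir183 and Mir96 are 116 bases apart, and Mir182 lies a further 3453 bases away, so the cluster spans 3820 bases. The gene table places all 3 within the span of the long non-coding RNA gene Mirc35hg, between the protein-coding genes Nrf1 and Ube2h. All 3 are non-coding RNAs, and the exons and introns of Mirc35hg were not used here.

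The probes show which part of each miRNA was read. The longer probe of each member is printed 5′ to 3′, and the capital marks the 1 base by which it exceeds the shorter one.
miR-183-5p probe: agtgaattctaccagtgcC
miR-96-5p probe: agcaaaaatgtgctagtgccaA
miR-182-5p probe: cggtgtgagttctacC
Each was an exact complement of its miRNA. The miR-183-5p probe of 19 bases pairs with bases 4 to 22, the miR-96-5p probe of 22 bases with bases 2 to 23, and the miR-182-5p probe of 16 bases with bases 10 to 25, outside the seed. The longest unbroken run of bases that these probes shared with another member was 8, between the miR-183-5p probe and miR-182-5p. Counting bases beyond an unbroken run, miR-183-5p and miR-182-5p were equal at 18 of their first 22 positions. Binding of a probe to another member was not tested. The 22-base miR-96-5p probe shared at most 7 with another member, and the 16-base miR-182-5p probe 7.

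With percentile scaling all 3 members were higher in the exosomes of LPS-treated cells, by different amounts and from different starting points. miR-183-5p was measured well on every array and rose 4.59-fold. miR-182-5p was not detected in control exosomes and was detected in all 3 LPS samples, at least 1.76-fold higher with this scaling and 1.32-fold with quantile normalization. miR-96-5p was faint in control exosomes, below the level that counts as well above background, and its mean LPS level exceeded that limit at least 1.16-fold; its direction turned with normexp background correction and with the files' gene total signal, and its bound fell under 1 with median scaling and quantile normalization. Percentile scaling set the 75th percentile of each array, taken over the 198 miRNAs that every array detected, to a common value, and scaled signals under 9.89 (3.31 on the log2 scale) were set to that floor. A miRNA was tested when detected on every array of at least 1 group, with limma over all 412 such miRNAs and Benjamini-Hochberg adjustment at 0.05. The 3 members called higher compare with 65.5% of all tested miRNAs, although miR-182-5p entered the test only through the LPS arrays, so that its call follows from the filter and the floor. The arrays of the groups did not overlap for 66.3% of all tested miRNAs in that direction, so the direction alone does not set the cluster apart. miR-183-5p was also at least 2-fold higher by its fitted change, as were 44.2% of all tested miRNAs; the bounds of miR-96-5p and miR-182-5p are below 2-fold.

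The LPS arrays were brighter as a whole, and this bears on every fold given here. Control arrays detected 219 ± 8.14 miRNAs and LPS arrays 428 ± 17.1 (SD, n = 3 each). The 75th percentile of the shared miRNAs was 4.67 times higher in LPS before scaling, while 4 spiked-in RNAs stood at 0.878 of their control signal; each had an exact permutation p = 0.1 (two-sided), and 3 against 3 samples can give none smaller. The part of the brightness in the members' changes was not tested beyond the scalings given here. The 7 miRNAs listed as macrophage and blood-cell markers were all detected on LPS arrays and 6 of them on control arrays, among them miR-21a-5p with a log2 change of 1.36 and miR-146a-5p with 1.34. All 7 were called higher, against 65.5% of all tested miRNAs, with miR-142a-5p tested only through the LPS arrays; with normexp 4 were called higher and 2 lower, against 27.4% of all tested miRNAs called higher. Of 2 lymphocyte markers, miR-150-5p was detected on no array and miR-181a-5p on the LPS arrays only. None of the 4 serum, erythroid and liver markers on the array, of 3 muscle markers or of 2 neural markers was detected on any array.

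miR-183-5p gave signals of 161, 191 and 189 in the control samples and 3554, 3995 and 4040.3 in the LPS samples before scaling. The LPS signals all lay far above the control signals, and within each group the samples were close together, at 180 ± 16.6 and 3863 ± 268 (SD, n = 3), a 21.4-fold difference. After scaling, the log2 levels were 8.59, 8.59 and 8.63 in control and 10.82, 10.78 and 10.81 in LPS, so that the scaled levels spread less within a group than the unscaled ones. The rise was 2.20 on the log2 scale (SE 0.04, 95% confidence interval 2.11 to 2.29, limma, Benjamini-Hochberg adjusted p = 1.85e-08). Every one of the 15 spots of this probe was well above background on every array. The lowest of the 15 LPS 1 spots, at 3075, was above the highest control spot, at 211.

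**Figure D1:**
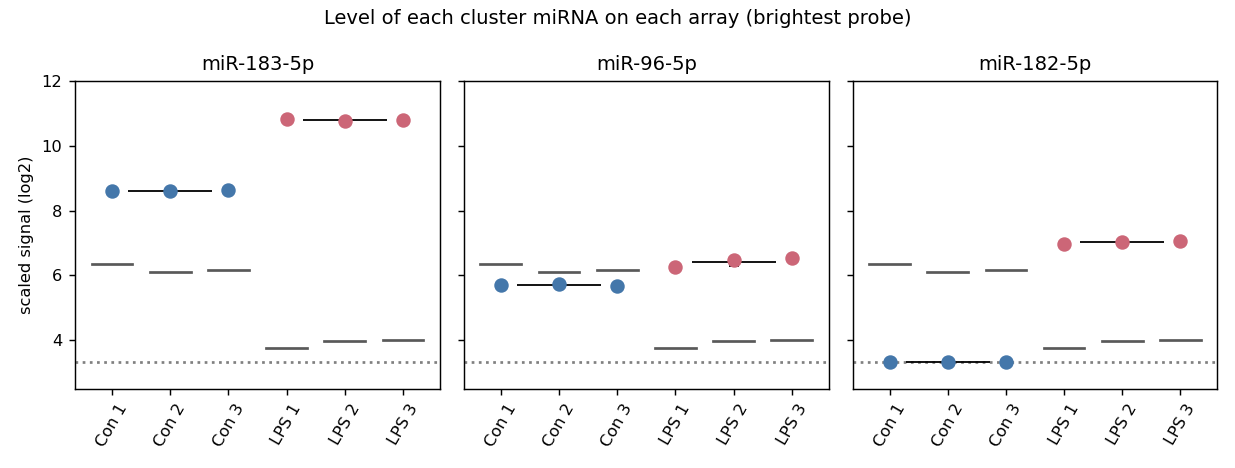
Scaled log2 signal of the brightest probe of each cluster miRNA on each of the 6 arrays (points; blue, control; red, LPS), with the mean and SD of each group in black, the lowest signal well above background on each array as a grey dash, and the floor of 3.31 as a dotted line. miR-183-5p lies above the grey dash on all 6 arrays, miR-96-5p only on the LPS arrays, and miR-182-5p is at the floor on the 3 control arrays and between 6.97 and 7.05 on the LPS arrays; the order of the miR-96-5p groups turns with normexp and the gene total signal.

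miR-96-5p gave signals of 21.9, 26.4 and 24.4 in control and 151, 202 and 208 in LPS before scaling. The files call it detected on all 3 control arrays, but of the 15 spots of its brighter probe on each control array only 1, on control 2, was well above background, so the control level is only a bound. On the LPS arrays all 15 spots were well above background, although those on LPS 1 ranged from 32.8 to 213. The scaled log2 levels were 5.71, 5.73 and 5.68 in control and 6.26, 6.47 and 6.53 in LPS. LPS 1 was the lowest of the LPS samples. Its scaled signal of 76.7 was above the measured control signals but below 82.0, the lowest signal well above background on control 1, so the bound holds for the group means and not for every array. The measured difference was 0.71 (SE 0.07, 95% confidence interval 0.53 to 0.90, limma, Benjamini-Hochberg adjusted p = 0.000109), and against the lowest signal well above background on each control array it was at least 1.16-fold. Of 173 tested miRNAs that were well above background on all LPS arrays and no control array, 31.8% had a bound above 1.

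miR-182-5p gave unscaled signals of 0.525, 0.479 and 1.77 in control, which are indistinguishable from 0, and of 246, 299 and 299.7 in LPS. No control spot of either probe was well above background, and with the brighter probe 8, 7 and 5 of 15 spots on the control arrays were below 0. All 3 scaled control levels were therefore at the floor, and the LPS levels were 6.97, 7.04 and 7.05. The fitted change of 3.71 was measured from that floor, the same on every control array, so no error or test is read from it. The fitted change was 6.28 with a floor of 1 and 1.44 where detection meant well above background, so it sets no size. The bound was at least 1.76-fold after percentile scaling and at least 8.21-fold without scaling. It was lower, at 1.41-fold with median scaling and 1.32-fold with quantile normalization. Control exosomes thus have only an upper limit for miR-182-5p, and a lower level there than that limit was not measurable.

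**Figure D2:**
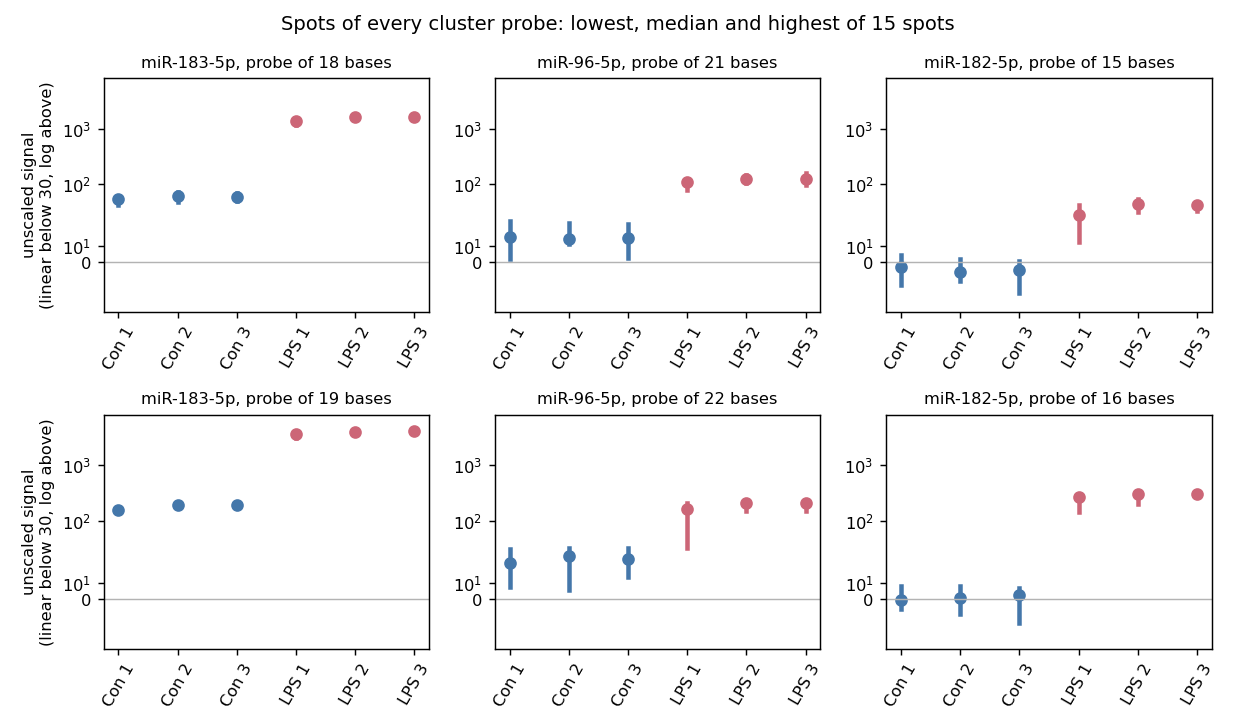
Unscaled signal of each of the 6 cluster probes on each array, on an axis that is linear below 30 and logarithmic above; the point is the median of 15 spots and the bar runs from the lowest to the highest spot (blue, control; red, LPS). Control spots of miR-182-5p scatter about 0. The spots of the groups do not overlap for either probe of miR-183-5p or miR-182-5p, nor for the shorter miR-96-5p probe. Those of the longer miR-96-5p probe do, from 32.8 on LPS 1 against up to 33.0 on control 2. Without scaling 88.3% of all tested miRNAs were called higher in LPS, so this separation does not set the cluster apart.

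With percentile scaling the 2 probes of a member changed in the same direction, which the floor fixed in advance for miR-182-5p. With normexp the miR-182-5p probes differed, at −0.50 for the shorter and 0.29 for the longer. A fit over all 955 probes of the tested miRNAs called 53.5% higher in LPS, among them all 6 cluster probes, of which the 2 of miR-182-5p were at the floor on every control array. The shorter miR-183-5p probe, of 18 bases, changed by 2.54 (SE 0.02) and the longer by 2.20 (SE 0.02). Before scaling these were 27.2-fold and 21.4-fold, and with normexp the shorter probe gave the smaller change, 1.61 against 1.90. The 2 miR-96-5p probes changed by 0.72 (SE 0.08) and 0.71 (SE 0.08), neither being well above background on any control array; both turned negative with normexp. For miR-182-5p the probe of 16 bases reached 246 to 299.7 in LPS, while the probe of 15 bases, which lacks the final base shown in capitals, reached only 28.1, 43.5 and 42.7 and was well above background on 2 of 3 LPS arrays. Its change of 0.81 was again measured from the floor and turned negative with normexp, so the detection of miR-182-5p rests mainly on 1 probe.

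The members' changes were also read against all miRNAs detected on every array, since the scaling moves all of them alike. The median change of those 198 miRNAs was 0.77, and 58.1% of them were called higher. miR-183-5p stood 1.43 above that median, with 19 of the 198 changing by more, whereas the measured change of miR-96-5p stood 0.05 below it; since its control signal was not well above background on any array, that gap is not a measured one. These gaps were the same with no scaling, spike-in scaling and the percentile over all miRNAs, because such scalings shift every unfloored value equally. They differed where the signal itself was computed otherwise: miR-183-5p stood 1.79 above the median with normexp and 2.27 above it with the gene total signal, and miR-96-5p stood at −0.67 and −2.10 from it. Scaling to the spiked-in RNAs moved the median to 3.18 and put miR-183-5p at 4.61 and miR-96-5p at 3.13, with 89.8% of tested miRNAs then called higher. Without scaling the median was 2.99 and 88.3% were called higher.

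**Figure D3:**
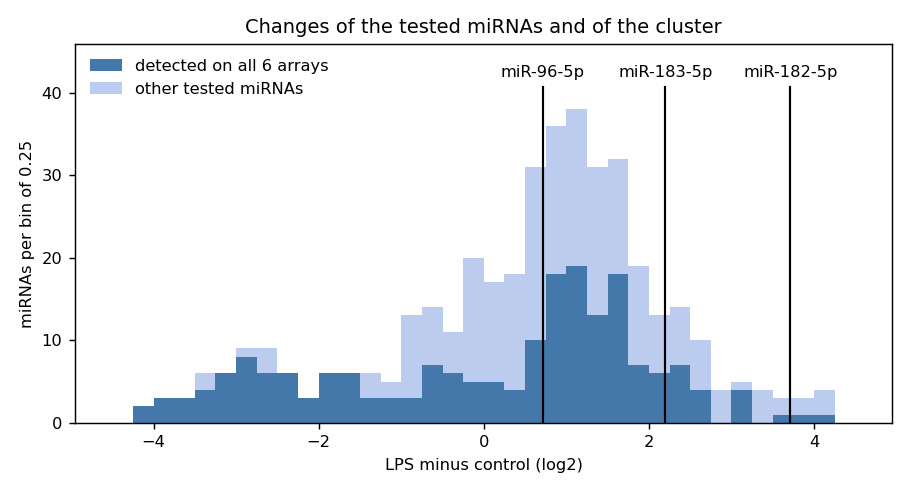
Number of tested miRNAs by change in scaled signal (LPS minus control, log2, bins of 0.25); dark bars are the 198 miRNAs detected on all 6 arrays, light bars the other tested miRNAs, whose changes may be measured from the floor. Vertical lines mark the cluster: miR-96-5p at 0.71, from a control signal not well above background and a change that turned negative with normexp and the gene total signal, miR-183-5p at 2.20 and miR-182-5p at 3.71, the last measured from the floor.

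Within an array the ratio of 2 members does not depend on how the array is scaled, as long as neither is at the floor. The log2 ratio of miR-183-5p to miR-96-5p was 2.88, 2.86 and 2.95 on the control arrays and 4.56, 4.31 and 4.28 on the LPS arrays. It was higher on every LPS array, by 1.49 on average (two-sided exact permutation p = 0.1, adjusted p = 0.1 over 3 pairs, the smallest the design allows). Since the probes differ, the level of this ratio has no meaning of its own, and since miR-96-5p was not well above background in control, the difference is not a measured gap between the members. The ratios with miR-182-5p start from the floor and are not read.

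Processing changed the size of the members' changes in ways that differ between them. For miR-183-5p the change stayed positive in the 24 alternatives run, from 1.88 with median scaling to 4.61 with spike-in scaling. Leaving aside the slide row settings below, whose calls are not read, it also stayed called in each. It was 2.24 in the value table that the authors deposited, where 69.9% of the tested miRNAs were called higher, and 2.22 within slide row 1, which holds the 3 controls and LPS 1. That value and the fit with the row as a block, which gives the same estimate, rest on 1 LPS array assumed to vary as the controls do, and are values rather than kept calls. For miR-96-5p the change was 1.003 in the value table and 0.55 within row 1, but −0.56 with normexp (27.4% of tested miRNAs called higher) and −1.76 with the gene total signal (66.3%), and it lost its call with quantile normalization (0.18, adjusted p = 0.114 in limma). The gene totals of miR-96-5p in the files were 52.5, 61.5 and 59.4 on the control arrays, where its 2 probe totals summed to only 7.88, 8.84 and 8.26, and 73.1, 95.3 and 94.5 on the LPS arrays, where total and sum were equal to 3 digits. With the sum of the probe totals in place of the gene total, an alternative added after the data were seen, the change was 0.52 (62.9% of tested miRNAs called higher). The files also give a feature size fraction that enters their totals, at 0.6 on each control array and 0.812 to 0.829 on the LPS arrays. For miR-182-5p the change was 2.83 in the value table and 0.29 with normexp, both called. With normexp this was only 0.18 above the median of the 198 miRNAs detected on all arrays, 90 of which changed by more.

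**Figure D4:**
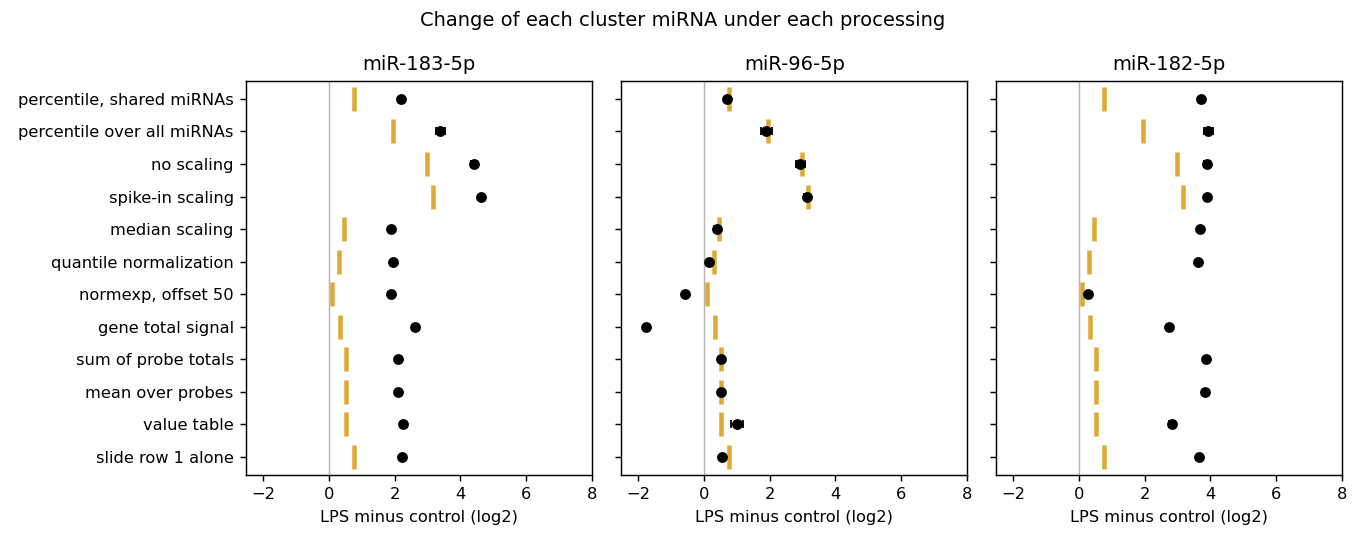
Change of each cluster miRNA (LPS minus control, log2; point and SE, limma) under 12 ways of processing, with the median change of the 198 miRNAs detected on all arrays as a yellow bar; the first is the percentile scaling used for the values above. miR-183-5p lies to the right of the bar each time, and miR-96-5p, whose control signal was not well above background, lies below 0 with normexp (−0.56) and the gene total signal (−1.76). Wherever the control values of miR-182-5p are at the floor, as in the first, no size or error of its change is read.

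The passenger arms of the 3 hairpins were mostly undetected. miR-96-3p and miR-182-3p, of 2 probes each, were detected on no array. miR-183-3p was not detected in control and was detected on all 3 LPS arrays, with a fitted change of 1.79 measured from the floor; its bound was 0.462, under 1, and it was at −0.59 with normexp, so that no direction is read. The opposite arms of one precursor were therefore seen together in LPS for Mir183 only.

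Other miRNAs within 2 Mb of the cluster on chromosome 6, by the probe positions in the files, were arms of Mir29a and Mir29b-1, whose miRNAs target collagen and other matrix mRNAs. miR-29a-3p, measured on every array, rose by 1.66 (SE 0.04, adjusted p = 1.08e-07 in limma). miR-29b-1-5p was detected in LPS only and stood at −0.01 (SE 0.11), which did not pass the test, and miR-29a-5p was detected on 1 LPS array and was not tested. With the 3 passenger arms of the cluster this made 6 neighbours, of which 3 were tested and 2 called higher, against 65.5% of all tested miRNAs; one of the 2 was miR-183-3p, for which no direction is read. With normexp 1 was called higher and 2 lower.

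Markers of epithelium, a tissue in which the cluster is well known, were mostly undetected. Of the 7 listed, the miR-200 family members miR-200a-3p, miR-200b-3p, miR-141-3p and miR-429-3p and the skin miRNAs miR-203-3p and miR-205-5p were detected on no array. miR-200c-3p was detected on the 3 LPS arrays only, with a fitted change of 0.78 measured from the floor, and was well above background on only 2 of them, so no bound was computed. It was tested only through the LPS arrays, and its count of 1 of 1 tested called higher stands beside 65.5% of all tested miRNAs and reversed to lower with normexp.

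Of 8 miRNAs listed for sensory and neural tissue, 4 were tested and 4 called higher, against 65.5% of all tested miRNAs. Since miR-219a-5p and miR-138-5p were tested only through the LPS arrays, this count depends in part on the filter. The median change of the 4 tested was 1.30 against 0.85 over all tested miRNAs, with miR-138-5p entering it from the floor. miR-7a-5p, abundant in neuroendocrine cells, rose by 1.43 (SE 0.04), and the brain-enriched miR-128-3p changed by 2.07 (SE 0.06), being well above background on 2 of 3 control arrays. miR-219a-5p, known from myelinating glia, did not rise well above background in control and its LPS level exceeded the control bound at least 1.47-fold, but it was at −0.30 with normexp. miR-138-5p was detected on the LPS arrays alone and was well above background on none of them, so no bound was computed; it was called lower with normexp, at −0.64. miR-124-3p and miR-9-5p of neurons and miR-204-5p and miR-211-5p, 2 miRNAs of retinal pigment epithelium and pigment cells, were detected on no array.

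Of 6 miRNAs listed because they are also reported to act on Foxo mRNAs, 6 were tested and 6 called higher, against 58.1% of the miRNAs detected on all arrays, with a median change of 1.35 against 0.77 over the 198 miRNAs detected on all arrays. They ranged from miR-132-3p at 0.85 (SE 0.04) to miR-155-5p, which Toll-like receptor signalling induces, at 4.18 (SE 0.07). The myeloid miRNA miR-223-3p was at 1.08, a call that ended with normexp (0.084), and the paralogous miR-27a-3p and miR-27b-3p were at 1.34 and 1.61. miR-183-5p, at 2.20, exceeded 5 of these 6 values.

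The miRNAs most like each member over the 6 arrays were found by Pearson correlation of scaled log2 signal among the miRNAs detected on all arrays. For miR-183-5p they were miR-301a-3p, miR-19b-3p and let-7g-5p, each with r rounding to 0.9998 or 0.9999, and changes of 1.04, 1.04 and 2.39. Of the 197 miRNAs compared, 91 correlated with miR-183-5p above 0.99, the 6 arrays being split by group. For miR-96-5p they were miR-93-5p (r = 0.998, change 0.56), miR-148b-3p (r = 0.993) and miR-16-5p (r = 0.993), with 5 of 197 above 0.99. The level of miR-93-5p was also lowest among the LPS arrays on LPS 1. For miR-182-5p they were miR-6944-5p, miR-7042-5p and miR-140-3p, with changes of 2.65, 2.54 and 1.96; 95 of 198 miRNAs correlated above 0.99, and since its control values are all the floor, this likeness is the split by group alone.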

How the data were processed

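Exosomal RNA of 3 control and 3 LPS samples, grouped by title, was measured on 6 arrays of 1 slide and 1 scan. The authors deposited linear, background-subtracted intensity values and flags for each spot. Per the file headers the software was Feature Extraction 10.7.1.1, whereas 9.1 stands in the submitters' processing notes. A deposited value table is on a log2 scale, and the sources used here do not give its normalization. Its column medians were 2.73 to 2.74, and set against the scanner values of each array it gave r = 0.903 to 0.972 across miRNAs, which are not independent. Centring of that table stays unknown.

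For each probe (15 spots for the members), the mean processed signal of its spots was taken, leaving out control and outlier spots. The brightest of a miRNA's probes stood for it; a probe was well above background when most of its spots were. Scaling multiplied each array by the geometric mean of the 6 percentiles over its own. For the floor, the lowest scaled signal among detected miRNAs was found on each array and the median taken. A bound is the mean LPS level over the mean control level, where each control array counts the higher of its own signal and its lowest signal well above background. limma 3.58.1 in R 4.3.3 was used, and tested on simulated data. When replicates were left out, scaling, floor and the 412 tested miRNAs were kept. No per-sample columns were left unused and no arrays held identical values.

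Members and lists were chosen with earlier results of these data known. Named miRNAs were the members, detected neighbours and passenger arms, tested list members, the 2 markers of highest signal (a choice of names only), and the 3 best correlated miRNAs of each member; undetected list members are also named. A second rule by distance between levels was not used, since levels of different probes are not comparable. Same-numbered samples did not deviate together (r = −0.40, −0.22 and −0.28 over 198 miRNAs). With so few arrays these values cannot exclude pairing, and the labels do not say whether equal numbers pair samples. The files' probe positions are on mm9, used only to find neighbours.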

Additional observations from a re-analysis of the deposited data

How the results depend on the processing

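Of the 24 alternatives, miR-183-5p kept its call and direction in 24, miR-182-5p, whose call follows from the filter and the floor, in the 23 that tested it (it is not tested among miRNAs detected on all arrays) and miR-96-5p in 21. miR-96-5p lost its call with quantile normalization (0.18) and reversed with normexp (−0.56) and the gene total signal (−1.76). With normexp its probes stood at −0.84 and −0.56, and the shorter miR-182-5p probe at −0.50. Normexp added an offset of 50 to each signal before scaling, above the unscaled control signals of miR-96-5p and miR-182-5p. The median change of all tested miRNAs was then −0.58. The cause of the reversals was not tested. The bound of miR-96-5p was 0.931-fold with median scaling, 0.848-fold with quantile normalization, 5.42-fold without scaling and 6.18-fold with spike-in scaling. That of miR-182-5p ran from 1.32-fold with quantile normalization to 9.37-fold with spike-in scaling. The 2 settings on slide row are included in these counts, but they rest on 1 LPS array and do not bear on the calls. Without each replicate in turn, miR-183-5p ranged from 2.19 to 2.21, miR-96-5p from 0.66 to 0.79 and miR-182-5p from 3.70 to 3.74.

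Over all tested miRNAs 270 were called higher and 110 lower, 71.1% of calls higher. The higher count was 113 with normexp (28.5% of calls), 170 with well above background as detection and 115 over miRNAs detected on all arrays, where fewer were tested. The lower count fell to 59 with the percentile over all miRNAs, to 39 with unscaled signals and to 38 when scaled to the spiked-in RNAs, where 85.1%, 90.3% and 90.7% of calls were higher. It was 284 with normexp and 269 with no filter (48.7% of calls higher). With the replicate block miR-183-5p was at 2.20 (SE 0.05), and it changed no member's call. Signal over background limits miR-96-5p and miR-182-5p in control.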
